A study of Mus musculus with 6 samples.

Results

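The Myc, Pvt1 and Mycn loci are described here by the ChIP-seq peaks that 5 deposited lists place in a pair of mm9 windows. One is chr15:60800000-64000000, which holds Myc at 61816000 to 61822000, Pvt1 and the stretch beyond it. The other is chr12:12700000-13200000, which holds Mycn near 12943000. A peak is a member when it lies in a window, whatever its score, and 102 of the 76477 peaks of all 5 lists do, 87 on chromosome 15 and 15 on chromosome 12. The lists come from ES48 and ES49, cell lines from mouse Ewing sarcomas that EWS-FLI1 induced in Balb/c mice, both grown untreated in IMDM with serum. EWS-FLI1, precipitated with an antibody to FLAG, and H3K27ac have a list in each line, and H3K27me3 has one in ES49. Each list is 1 library with no replicate, so differences between the lines have no test, and intervals cover counting error of peaks only, which is itself understated because neighbouring peaks are not independent. The files give no read counts, so depth is unknown, and a place without a peak is one where the authors' caller made no call. Scores are the authors' own, with a floor near 50 and many peaks at exactly 3100. The median H3K27ac score was 547.5 over the ES48 list and 165.8 over the ES49 list, so a score ranks a peak within its own list, and scores of the lines given at 1 place are not a difference between them.

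Myc encodes a basic helix-loop-helix leucine zipper transcription factor that pairs with Max and drives genes of growth and proliferation, and Mycn encodes its close paralog, best known from embryonic and neural tissue. Pvt1 is a long non-coding RNA gene next to Myc, and DNA in and beyond it holds enhancers that act on Myc in several tissues, among them a distal cluster used in mouse blood cells. H3K27ac marks active promoters and enhancers, H3K27me3 marks chromatin held by Polycomb, and EWS-FLI1, the fusion that drives Ewing sarcoma, binds ETS-type GGAA sequences. In the RefSeq annotation of GRCm38, which gives names and order but not mm9 positions, the protein-coding genes Lratd2 and A1bg lie before Myc. Pvt1 follows it, then Gsdmc, Gsdmc2, Gsdmc3 and Gsdmc4 of the gasdermin family, Cyrib and Asap1. Mycn lies between Cyria and Ddx1.

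Myc was broadly acetylated in both lines. In ES48 a single H3K27ac peak of 9663 bp at chr15:61814487-61824149 covered the whole Myc interval, with a score of 3100, which 80.4% of the list fell below. In ES49 the peak at chr15:61815144-61821598 was 6455 bp wide, also with a score of 3100, which 93.99% of that list fell below. These are among the widest peaks of their lists: 99.4% of ES48 H3K27ac peaks and 99.5% of ES49 peaks were narrower. The whole ES49 peak lay inside the ES48 peak, which reached further on both sides. ES48 had 3 more peaks within 10 kb of Myc, of 456 to 643 bp and scores of 58.71 to 165.74, and ES49 had none.

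Acetylation ran on from Myc towards Pvt1. Places where H3K27ac peaks of the lines overlap followed each other at less than 50 kb from Myc to chr15:61972858, a stretch of 158.4 kb with 11 such places, whose limits were set after the values were seen. Peaks covered 60.6 kb of it in ES48 and 34.4 kb in ES49, or 38.3% and 21.7% of its length. The stretch is 4.95% of the window and held 72.4% of the window's acetylated bases in ES48 and 69.7% in ES49. Of its 24 ES48 peaks 13 overlapped an ES49 peak, where 66.6% of the whole ES48 list did. Of its 18 ES49 peaks 16 overlapped an ES48 peak, where 68.6% of the whole ES49 list did. The stretch was drawn from places that both lines share, so part of this overlap is built into it.

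**Figure D1:**
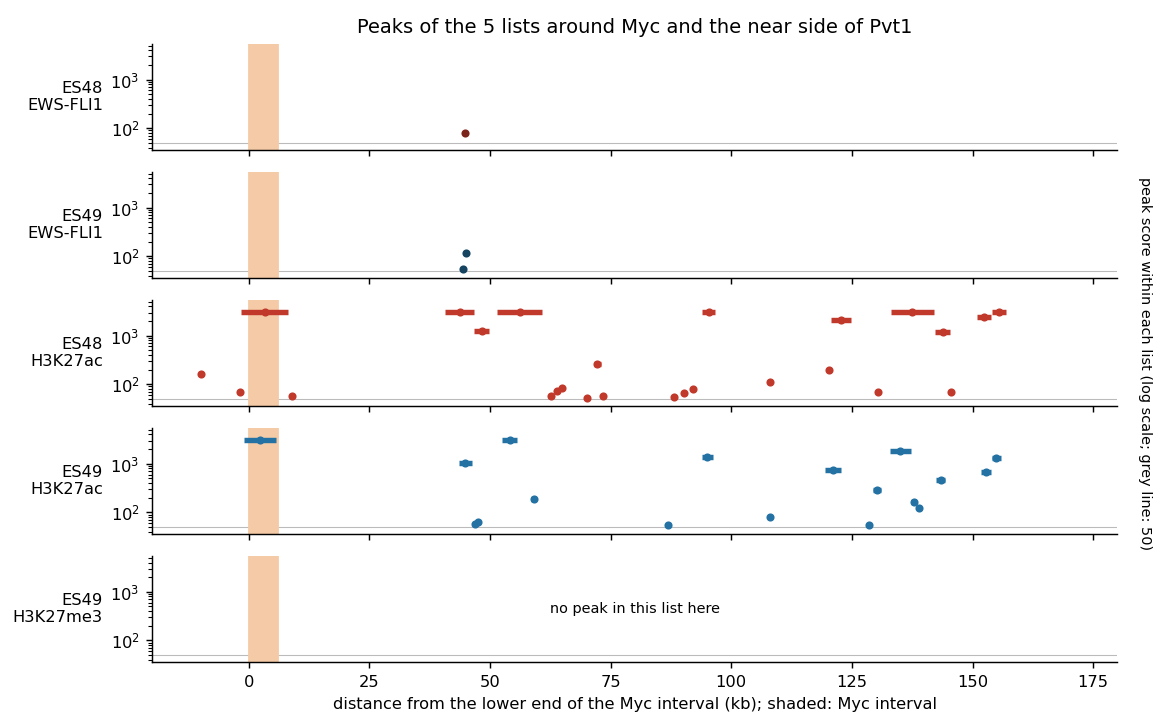
Peaks of the 5 lists against distance from the lower end of the Myc interval in kb, with the score of each peak on a log scale; a line spans the peak, a dot marks its centre, and the shaded band is the Myc interval. H3K27ac peaks at the score of 3100 stand at Myc in both lines, and the EWS-FLI1 peaks of both lines stand over the next strong H3K27ac peaks.

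The stretch had 2 blocks past Myc. In the first block, the place at chr15:61856727-61865763 held 9035 bp of H3K27ac in ES48 and 3435 bp in ES49. Its neighbour at chr15:61867562-61876885 held 9324 bp in ES48, as a single peak with a score of 3100, and 4085 bp in ES49, whose main peak there also had a score of 3100. ES48 thus covered 2.63 and 2.28 times as many bases as ES49, and of all 16483 places acetylated in both lines 92.0% and 89.1% had a lower ratio. With close neighbours joined into domains, this block was a domain of 33.0 kb with 9 peaks and 21.9 kb covered in ES48, and of 16.0 kb with 5 peaks and 7.52 kb covered in ES49.

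The second block was of nearly equal extent in the lines. It spanned 68.9 kb at chr15:61903915-61972858 in ES48, with 13 peaks and 28.6 kb covered, and 69.3 kb at chr15:61902656-61971942 in ES49, with 12 peaks and 20.5 kb covered. By covered length it ranked 88 of 13750 domains in ES48 and 139 of 13484 in ES49, ahead of the domain holding Myc itself, which ranked 661 in ES48 and 992 in ES49. Its strongest ES48 peaks, at chr15:61949012-61958077, chr15:61969962-61972858 and chr15:61910041-61912630, all scored 3100, above 80.4% of the ES48 list. At the corresponding places the ES49 peaks scored 1842.99, 1331.15 and 1350.72, above 87.9%, 83.3% and 83.5% of the ES49 list. One place ran the other way: at chr15:61945468-61947007 ES48 covered 500 bp with a score above 11.3% of its list, and ES49 covered 1540 bp with a score above 59.5% of its list. That ratio of 0.325 was low for the genome, with 0.667% of places acetylated in both lines below it.

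EWS-FLI1 was called at 1 spot of the chromosome 15 window, in both lines, and it lay in the first acetylated block. The ES48 peak was chr15:61860818-61861023, 206 bp wide with a score of 78.65. The ES49 list had chr15:61860817-61861196, 380 bp wide with a score of 114.82, and a second peak 132 bp before it at chr15:61860316-61860684 with a score of 54.33. The spot is 38.8 kb past the Myc interval. In ES48 it sat in the 6040 bp H3K27ac peak at chr15:61856727-61862766, which scored above 80.4% of its list, and in ES49 in the 2669 bp peak at chr15:61859569-61862237, which scored above 79.5% of its list. The centre of the stronger ES49 EWS-FLI1 peak was 0.10 kb from the centre of the ES49 H3K27ac peak, and the ES48 centres were 1.17 kb apart.

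Few EWS-FLI1 peaks of either list combine these features. Of the 614 ES48 EWS-FLI1 peaks 44.1% overlapped one of ES49, 34.4% lay in ES48 H3K27ac and 26.7% lay in ES49 H3K27me3. For the 681 ES49 peaks the shares were 27.8% overlapping one of ES48, 19.7% in ES49 H3K27ac and 12.6% in ES49 H3K27me3. Peaks that were shared by the lines, lay in H3K27ac of both and lay outside H3K27me3 numbered 15 in ES48 (2.44%, 95% Clopper-Pearson interval 1.37 to 3.997) and 12 in ES49 (1.76%, 0.914 to 3.06). On autosomes there were 7 in each line, and the others lay on X or Y. The shares just given are over lists that include X and Y, so they do not tell how rare the combination is among autosomal peaks. By score the Myc peak was number 5 of the 7 autosomal peaks in ES48 and number 4 in ES49. Read from the acetylated side, 1 of 57 ES48 H3K27ac peaks of both windows held EWS-FLI1 of its line, where 0.508% of the list did, and 1 of 40 in ES49, where 0.472% did. The combination was looked for after the Myc peaks had been seen. The scores of the Myc peaks were ordinary: 59.8% of the ES48 EWS-FLI1 list and 52.9% of the ES49 list scored lower, although in ES48 the Myc peak was the highest of the 11 EWS-FLI1 peaks on chromosome 15, and in ES49 the second of 8. The weaker ES49 peak was the lowest-scoring of those 8.

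Beyond the stretch, acetylation on the Pvt1 side thinned out and then stopped. Shared places lay at chr15:62118317-62119123 and chr15:62159644-62161248, and the second was of nearly equal length in the lines, with 1605 bp covered in ES48 against 1518 bp in ES49. The ES48 peak there scored above 60.6% of its list, and the 2 ES49 peaks above 40.7% and 48.4% of theirs. ES49 alone had peaks at chr15:62037628-62038133, chr15:62038197-62038735 and chr15:62041593-62042364, with scores of 64.16, 103.85 and 155.34. No ES48 peak lay nearer to them than 64769 bp. From chr15:62161249 to 63240721, a run of 1079 kb, neither line had an H3K27ac peak, nor had any of the other lists a peak there.

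H3K27ac resumed in ES48 about 1419 kb past Myc. Between 1000 and 1500 kb past Myc, ES48 had 3 peaks covering 4.43 kb and ES49 had 1 covering 0.657 kb. The ES48 peak at chr15:63241975-63243895 was 1921 bp wide with a score above 53.6% of its list, and the ES49 peak within it was 657 bp with a score above 43.7% of its list. The ES48 peak at chr15:63315370-63317482, of 2113 bp and a score of 621.55, was the highest-scoring ES48 peak of the window without an ES49 counterpart, and the nearest ES49 peak was 72.4 kb away. Between 1500 and 2000 kb past Myc, ES48 had 8 small peaks covering 4.81 kb and ES49 had 3 covering 1.59 kb. The 6 ES48 peaks from chr15:63554290 to 63572792 formed a domain with no score above 163.39.

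The order of the lines turned at the far end of the window. More than 2000 kb past Myc, ES48 had 5 peaks covering 6.19 kb and ES49 had 7 covering 8.63 kb, a ratio of 0.717. The highest-scoring place there spanned nearly the same bases in both lines: chr15:63828295-63830486 in ES48, 2192 bp with a score of 3100 and 80.4% of the list below it, and chr15:63828436-63830529 in ES49, 2094 bp with a score of 3233.06, which 99.99% of the ES49 H3K27ac list fell below. The highest score was 3233.1 in the H3K27ac lists of both lines and in the H3K27me3 list alike. Whether it is a limit of the scale is unknown. At chr15:63863195-63865693 ES48 covered 1957 bp and ES49 2486 bp, and at chr15:63890869-63892458 ES48 covered 1082 bp with a score above 34.6% of its list and ES49 1590 bp with a score above 75.1% of its list. ES49 alone had a peak at chr15:63849594-63850922, 1329 bp with a score of 222.33, the highest-scoring ES49 peak of the window without an ES48 counterpart. In mm9 these places cannot be assigned to the gasdermin genes, Cyrib or Asap1 without an annotation of that build.

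**Figure D2:**
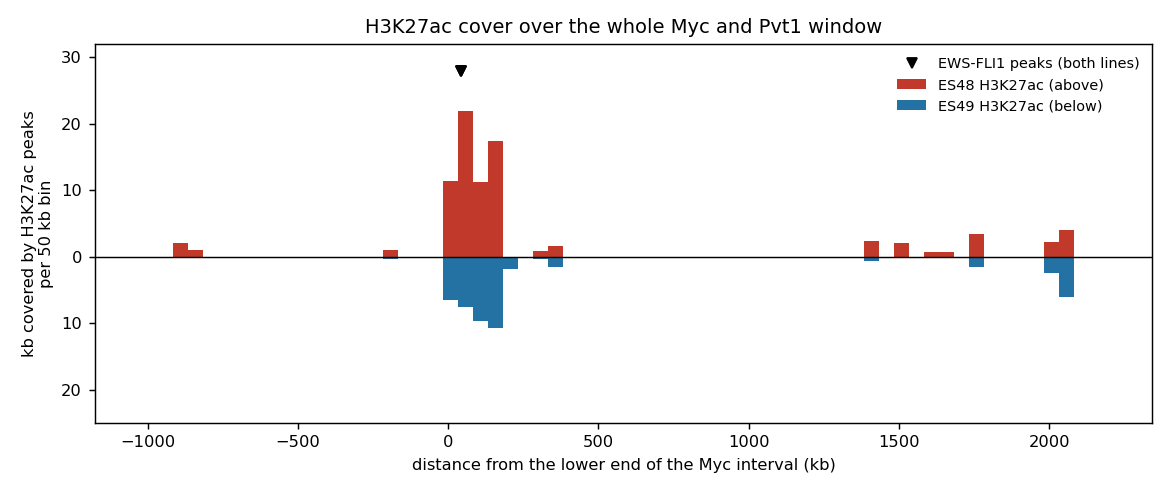
Kilobases covered by H3K27ac peaks in each 50 kb bin of the chromosome 15 window, against distance from the lower end of the Myc interval in kb, with ES48 above the axis and ES49 below it; the triangle marks the EWS-FLI1 peaks by position alone. Cover gathers in the bins next to Myc, is absent for 1079 kb, and is higher in ES49 than in ES48 in the last bins that hold peaks.

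On the other side of Myc there was little. Farther than 10 kb before the Myc interval, H3K27ac covered 4.16 kb in ES48 and 0.393 kb in ES49, which was a single peak at chr15:61602235-61602627 with a score of 50.51. The largest was the ES48 peak at chr15:60940228-60942292, 2065 bp with a score of 461.86, and the nearest ES49 peak was 263.5 kb away. No H3K27ac was called in either line over the 631 kb from chr15:60971163 to 61602139.

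Over the whole chromosome 15 window, ES48 had 48 H3K27ac peaks covering 83.6 kb and ES49 had 36 covering 49.4 kb. These peaks averaged 1743 bp across in ES48 and 1372 bp in ES49. Over the whole lists the averages were 1858 bp in ES48 and 1208 bp in ES49, which lie further apart. The difference in number lay among peaks below the median score of their own list, 547.5 in ES48 and 165.8 in ES49. When both lists kept their higher-scoring 50%, each line had 15 peaks in the window, and the ratio of covered length was 1.66. With all peaks the ratio of covered length was 1.69, against 1.35 over the whole lists and 1.16 over chromosome 15. Chromosome 15 itself had a low ratio, since 17 of the 19 autosomes were above it, in a range of 1.097 on chromosome 11 to 1.84 on chromosome 19. Such ratios move with how much was called in each list and carry no replicate error. In the window 22 of 48 ES48 peaks overlapped an ES49 peak (45.8%, 31.4 to 60.8), where 66.6% of the whole ES48 list did. In ES49 27 of 36 did (75.0%, 57.8 to 87.9), where 68.6% of the whole list did. The ES48 peaks without a counterpart were small, with a median width of 515.5 bp against 2074.5 bp for shared ones. The whole ES48 list had the same trait, with medians of 690 bp and 1953 bp. Of the 26 peaks in the window 19 scored below 100. The median score of the 26 was 71.0, against 116.4 for all ES48 peaks without a counterpart. With the higher-scoring 50% of both lists, 73.3% of the ES48 peaks in the window were shared, and 82.6% of the whole ES48 list.

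Shared places were mostly larger in ES48, as they were across the genome. Of 20 places acetylated in both lines in this window, ES48 covered more bases at 17 (85.0%, 62.1 to 96.8), close to the 81.0% of all such places. The median ratio was 1.48, against 1.26 over all such places. The 3 exceptions were the place in the second block and the 2 at the far end. Covered length ranked alike in the lines, with a Spearman rho of 0.878 over the 20 places and 0.751 over all 16483. Places of one locus share their libraries and are not independent. Scores of 3100 or more were reached by 7 of the 48 ES48 peaks, where 19.6% of the list reached it, and by 3 of the 36 ES49 peaks, where 6.01% did.

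**Figure D3:**
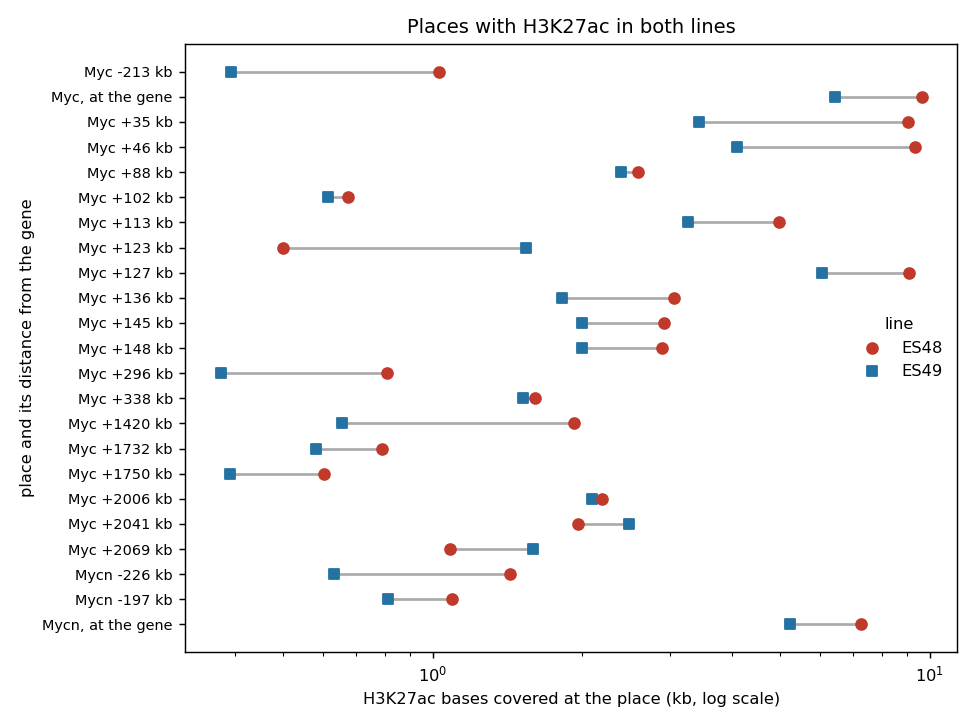
Bases covered by H3K27ac, in kb on a log scale, at the 23 places acetylated in both lines, 20 in the chromosome 15 window and 3 in the chromosome 12 window, in order along the chromosome; circles are ES48, squares are ES49, and each has 1 library. ES48 lies to the right at 20 places, and the exceptions are 123, 2041 and 2069 kb past Myc.

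A broad H3K27ac peak lay beside the Mycn position in both lines as well, beginning 57 bp above it in ES48 and 1.94 kb above it in ES49. The ES48 H3K27ac peak was chr12:12943058-12950320, 7263 bp wide with a score of 3100, and the ES49 peak was chr12:12944943-12950167, 5225 bp wide with a score of 3100. They were wider than 98.6% of the ES48 list and 99.0% of the ES49 list. Their upper ends lay within 153 bp of each other, and the ES48 peak reached further towards lower coordinates. ES48 covered 1.39 times as many bases here as ES49, and 61.8% of all places acetylated in both lines had a lower ratio. ES48 had 1 more peak within 10 kb of the Mycn position, chr12:12942312-12942644, 333 bp wide with a score of 53.78. In the RefSeq table Mycn lies on the minus strand, so its promoter is at its end of higher coordinate. That promoter is shown because Mycn is the acetylated member with an entry in the RefSeq promoter table. The 250 bases before the start, chr12:12941837-12942086 of GRCm38.p6, minus strand, are printed 5′ to 3′ with matches to TTTGGCGC, an E2F-type sequence, in capitals. These GRCm38 coordinates cannot be set beside the mm9 positions of the peaks.

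Mycn promoter: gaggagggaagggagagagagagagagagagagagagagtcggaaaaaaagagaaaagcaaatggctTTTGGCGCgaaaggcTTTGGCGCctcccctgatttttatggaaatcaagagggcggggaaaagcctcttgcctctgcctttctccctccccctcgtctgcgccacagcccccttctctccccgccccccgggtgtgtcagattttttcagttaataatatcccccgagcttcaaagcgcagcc

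TTTGGCGC was searched on both strands and matched at 2 spots, −183 to −176 and −168 to −161 from the start, both on the gene's strand and without overlap. Among all 32851 promoter windows of 250 bases, 0.417% hold at least 1 match. GGAA, the core of ETS sites, matched 4 times, and 93.4% of all windows hold it. GGAAGGAA and the E-box CACGTG had no match in these letters, and are held by 3.12% and 6.02% of windows. The motifs were chosen with the sequence known and describe letters only. The nearest EWS-FLI1 call to the Mycn position was 92.1 kb away.

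Over the whole chromosome 12 window, the Mycn peak included, ES48 had 9 H3K27ac peaks covering 18.5 kb and ES49 had 4 covering 7.09 kb, a ratio of 2.61, against 1.37 over chromosome 12 and 1.35 over the whole lists. Neighbouring ES48 peaks at chr12:12797858-12801452 and chr12:12801487-12803941, with widths of 3595 and 2455 bp and scores of 987.44 and 815.27, had their nearest ES49 peak 43.5 kb away. They lay 139.1 to 145.1 kb below the Mycn position, on the far side from its promoter. A further ES48 peak at chr12:12816644-12817749 scored 249.95 and was also without a counterpart. At chr12:12715110-12716557 both lines had a peak, of 1432 bp in ES48, with a score above 51.9% of its list, and of 634 bp in ES49, with a score above 33.5% of its list. At chr12:12745253-12746344 the peaks were 1092 bp in ES48, with a score above 34.4% of its list, and 811 bp in ES49, with a score above 43.4% of its list. The only ES49 peak without a counterpart, at chr12:12847418-12847838, scored 64.39. In ES48 3 of 9 peaks were shared (33.3%, 7.49 to 70.1) and in ES49 3 of 4 were (75.0%, 19.4 to 99.4), where the whole lists had 66.6% and 68.6%. Such small counts leave wide intervals. Past the upper end of the Mycn peak, none of the 5 lists had a peak up to the end of the window.

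**Figure D4:**
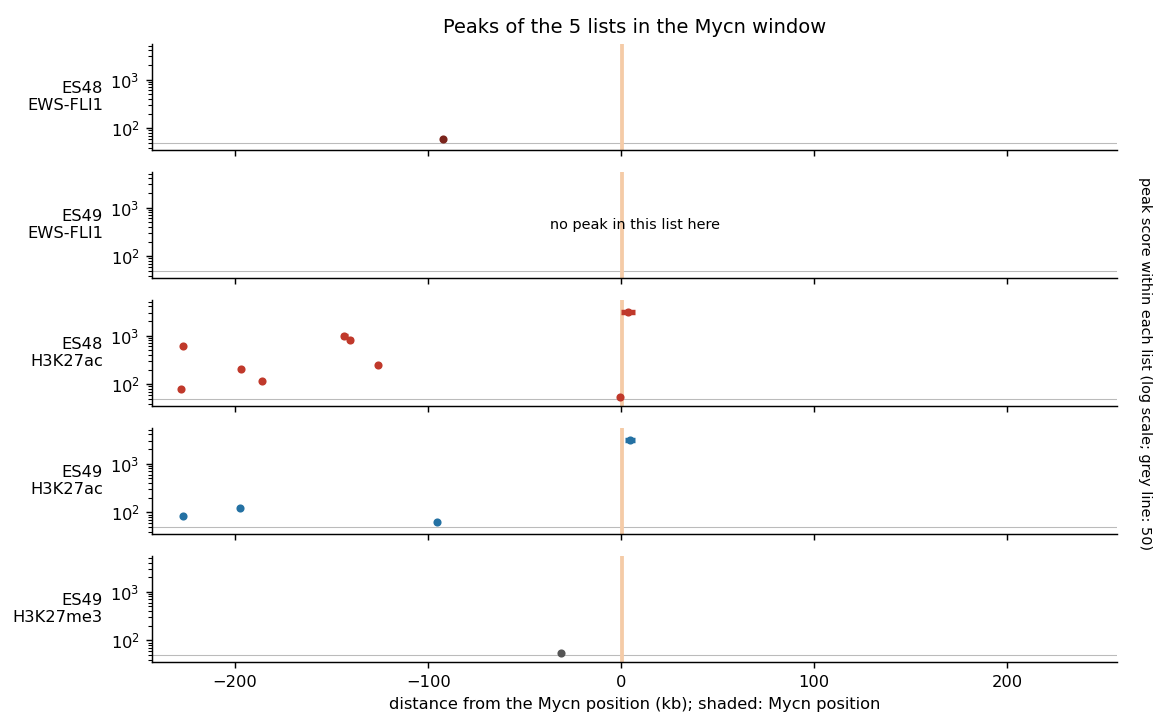
Peaks of the 5 lists in the chromosome 12 window against distance from the Mycn position in kb, with the score of each peak on a log scale; a line spans the peak, a dot marks its centre, and the shaded band is the Mycn position. Both lines have an H3K27ac peak with a score of 3100 beside Mycn, and ES48 has scores of 987.44 and 815.27 at 139.1 to 145.1 kb below it where ES49 has no peak.

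EWS-FLI1 had 1 weak peak in the chromosome 12 window, in ES48 alone, at chr12:12850778-12850939. It was 162 bp wide with a score of 58.96, and 38.6% of the ES48 EWS-FLI1 list scored lower. It was the only ES48 EWS-FLI1 peak on chromosome 12. It lay outside the H3K27ac peaks of both lines, 33.0 kb from the nearest ES48 peak and 2.94 kb from the weak ES49 peak named above, and 92.1 kb below the Mycn position. The nearest ES49 EWS-FLI1 peak was 802 kb away. The whole lists had 0.239 EWS-FLI1 peaks per Mb in ES48 and 0.265 in ES49. In a window of 0.5 Mb, 1 peak against 0 is too few to compare the lines.

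Calls of H3K27me3 were few in both windows. The chromosome 15 window had 0 of the 19560 ES49 H3K27me3 peaks, where the list averaged 7.60 peaks per Mb over the genome and 9.94 per Mb over chromosome 15. The nearest calls lay 3.25 Mb below Myc, at chr15:58563610-58563972, and 2.93 Mb above it, at chr15:64751133-64751636, so that neither the gene, the acetylated blocks nor the empty 1079 kb beyond them had a call of the mark. The chromosome 12 window had 1 peak, or 2.0 per Mb, where chromosome 12 averaged 7.71 per Mb. That window, of 0.5 Mb, is too short for this difference to say much. The peak, chr12:12911527-12911773, was 247 bp wide with a score of 55.84. It was among the smallest of its list, where 1.30% of peaks were narrower and 16.4% scored lower. It lay 31.2 kb below the Mycn position, between the EWS-FLI1 peak of ES48 and the gene, and overlapped no H3K27ac of either line, the nearest being 30.5 kb away in ES48 and 33.2 kb away in ES49. The next H3K27me3 peak above Mycn was 2.88 Mb away. Over the whole list 1.49% of H3K27me3 peaks overlapped ES49 H3K27ac. Of the H3K27ac peaks in both windows 0 of 57 in ES48 and 0 of 40 in ES49 met H3K27me3, where 1.74% of the ES48 list and 0.89% of the ES49 list did, so a count of 0 is near the background. H3K27me3 has no list in ES48, so the ES48 peaks are set against the mark of the other line.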

How the data were processed

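The peaks come from ChIP-seq lists of 5 of the 6 samples. Input DNA of ES49 was not analysed here. Reads were aligned to mm9, and Bowtie 1.1.1 and SAMtools 1.2 are named, per the submitters' processing notes. Peak names point to a MACS program, but which version, with which control or filters, is not given in the sources used here. The authors deposited 1 score per peak. As its scale is unknown, scores rank peaks within a list, and no ratio or difference of scores was taken between lists. Starts were written 1-based. An overlap is 1 bp or more in common. A place is a run of overlapping H3K27ac peaks of both lines, and a domain joins H3K27ac peaks less than 12.5 kb apart. Distances are to the Myc interval and Mycn position given in the opening. Shares carry 95% Clopper-Pearson intervals. With 1 library per group no test was made. Overlap, cover and joining were checked on simulated data with Python 3.11.15, numpy 2.4.6, pandas 2.3.3 and scipy 1.17.1. Alternatives were a 50% overlap, peaks within 1 kb, the upper 50% by score, lists of equal length, joining at 5 kb, and windows 100 kb longer or shorter at each end. The peaks named are those within 10 kb of Myc or Mycn, all EWS-FLI1 and H3K27me3 peaks, the highest-scoring H3K27ac peaks per line and window (10 on chromosome 15, 5 on chromosome 12), up to 5 highest-scoring H3K27ac peaks per line and window without a counterpart, and the domains with most covered length, of which the text gives a selection. Members, lists and motifs were chosen with earlier results of these data known. Of the 3 genes, Mycn matched the RefSeq promoter table (GRCm38.p6).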

Additional observations from a re-analysis of the deposited data

How the results depend on the processing

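Of 46 alternatives over 13 results, 39 left the value within its interval or moved it by 1.5 times at most. None turned the ratios of covered length. Some of the 39 had little room to change. Shifting the edges of the chromosome 15 window by 100 kb gave the main values again, and its H3K27me3 count of 0 could not fall. For shared peaks of the chromosome 12 window the intervals were wide, at 7.49 to 70.1 in ES48 and 19.4 to 99.4 in ES49. When lists kept their higher-scoring 50%, 73.3% of ES48 H3K27ac peaks in the chromosome 15 window were shared. In the chromosome 12 window 100% of ES49 peaks, a single peak, then were, and H3K27me3 and EWS-FLI1 had 0 peaks each. Of the 3 EWS-FLI1 peaks in the chromosome 15 window 2 were then kept, and H3K27ac there had 15 peaks in ES48 and 15 in ES49, against 48 in ES48 and 36 in ES49 with all peaks. With lists of equal length there were 48 in ES48 and 32 in ES49. With the higher-scoring 50% of each list, the domains of the chromosome 15 window numbered 9 in ES48 and 8 in ES49. With all peaks there were 15 in ES48 and 13 in ES49. Joined at 5 kb, ES48 had 25. The cut leaves fewer peaks, and shorter joins split domains by construction. The ratio of covered length ranged from 1.66 to 1.75 in the chromosome 15 window and from 2.12 to 2.82 in the chromosome 12 window. No paired analysis was possible because each line has 1 library per antibody. Replicates could not be left out for the same reason. Depth is unknown, which limits what low-scoring peaks called in a single line can show.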
